A study of Mus musculus with 4 samples.

Results

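The Slc25a genes encode the mitochondrial carrier family, and their expression was compared between kidneys of a mouse model of autosomal dominant polycystic kidney disease (ADPKD), in which tubules widen into cysts, and kidneys of wild-type (WT) mice. Members were the rows of the deposited expression table whose gene name is Slc25a followed by a number. There were 46 of them among 32176 rows, and all 46 are protein-coding genes. RNA-seq of poly(A)-selected RNA from whole kidney gave 4 libraries, 2 per group. ADPKD mice had the genotype Pkd1fl/fl; Cre/Esr1+, in which tamoxifen activates a Cre recombinase that deletes floxed parts of Pkd1, the gene of polycystin-1. The control samples are labelled wildtype, which taken literally means neither the floxed allele nor the Cre, but the label does not spell this out. Tamoxifen at 10 mg/kg on postnatal day 10 is given in the labels of all 4 samples, WT included. The labels state neither the age at harvest, nor the sex, nor the promoter that drives the Cre, nor whether each library is from its own animal. The p-values therefore reflect only how far these samples spread, which in WT may be technical.

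Mitochondrial carriers are small membrane proteins built from repeats of a similar module. Most sit in the inner mitochondrial membrane, where each exchanges or imports a particular solute, such as ADP for ATP, phosphate, a carboxylate, an amino acid, a cofactor or iron. Kidney tubules, the proximal tubule above all, are rich in mitochondria, and their salt and solute reabsorption runs largely on ATP from oxidative phosphorylation, which depends on these carriers.

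Reads assigned to genes numbered between 18001308 and 19955120 per library, so that a single read on a gene with 1 kb of exon was worth 0.0501 to 0.0556 FPKM (reads on a gene divided by its exon length and by the depth of its library). Across genes, which are not independent replicates, log2 values correlated at 0.96 between the WT libraries, at 0.94 between the ADPKD libraries and at 0.86 to 0.89 between groups. Pkd1 was listed with 1.97 and 2.12 FPKM in WT, and with 2.48 and 2.08 FPKM in ADPKD, a log2 fold change of 0.10 with an adjusted p of 0.703 by limma. A total over the whole gene does not resolve the floxed exons, so it does not check the labels. ADPKD replicate 2 stood apart in genes of the sex chromosomes, with Xist at 29.6 FPKM against 0.0121 to 0.0217 in the other 3 libraries and Ddx3y at 0.0482 FPKM against 8.46 to 15.1. Slc25a5, Slc25a14, Slc25a43 and Slc25a53 lie on the X chromosome. Both WT libraries were alike in Xist and Ddx3y and the ADPKD libraries were not, so the ADPKD libraries are not repeats of the same animal. For the same reason this difference is partly mixed with group. Its part in the values of these members, or of any gene on another chromosome, was not tested. No sequencing batch is given in the labels.

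FPKM are set per exon length, which lets the levels of different carriers be placed side by side. Levels of the 46 members ran from 0 to 651 FPKM. In WT the highest member was Slc25a5, the ADP/ATP carrier ANT2, at 590 ± 86.0 FPKM (SD, n = 2). Slc25a39, the mitochondrial glutathione carrier, followed at 256 ± 72.6, then Slc25a4, the ADP/ATP carrier ANT1, at 223 ± 42.3, and Slc25a3, the phosphate carrier that feeds ATP synthase, at 175 ± 4.43 FPKM. The order of Slc25a39 and Slc25a4 is not resolved, because their WT libraries overlap, at 205 and 307 FPKM for Slc25a39 and 252 and 193 FPKM for Slc25a4. The rest of the 10 highest were Slc25a10 and Slc25a11, which carry dicarboxylates and oxoglutarate, the citrate carrier Slc25a1, the peroxisomal carrier Slc25a17, the NAD carrier Slc25a51 and the ATP-Mg/phosphate carrier Slc25a23, from 130 down to 31.1 FPKM on average. At least 1 FPKM was reached by 39 or 40 members in each library, and at least 10 FPKM by 25 and 26 members in WT and by 23 in each ADPKD library. Most carriers were thus low to moderate in level, and a few carried the bulk of the family's transcripts.

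**Figure D1:**
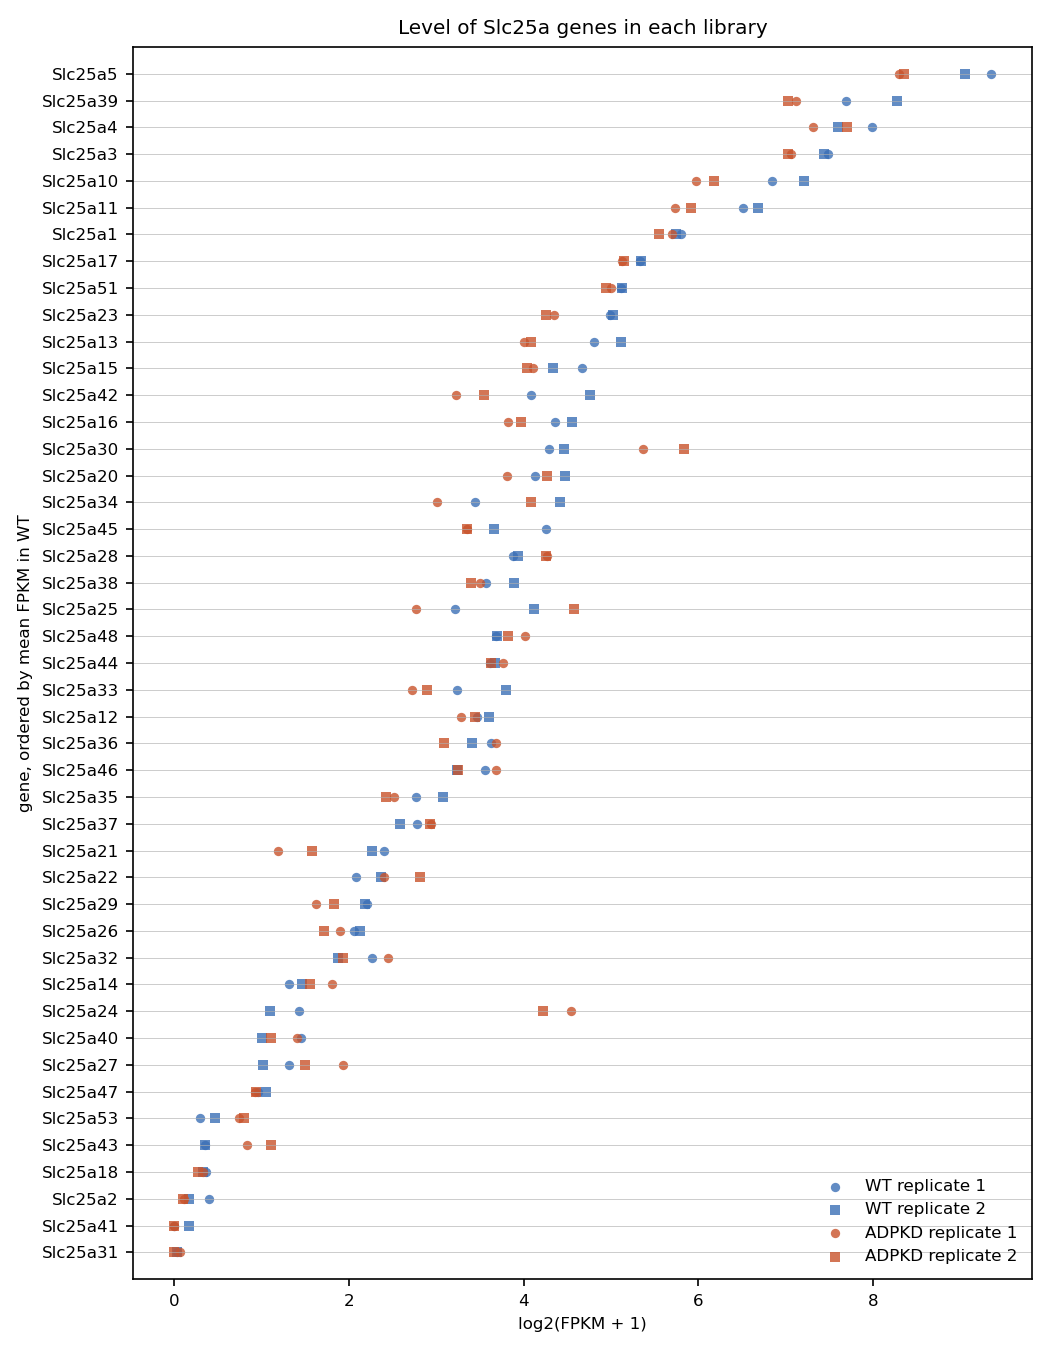
Level of the Slc25a genes in each of the 4 libraries, as log2(FPKM + 1) on the x axis, with genes ordered by their mean FPKM in WT. Blue marks are WT and orange marks ADPKD; Slc25a24 is the gene whose ADPKD libraries, at 22.3 and 17.6 FPKM, lie far to the right of its WT libraries, at 1.70 and 1.13 FPKM.

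Members at the bottom of the range were close to the limit of detection. Slc25a31, the ADP/ATP carrier of the testis, had 1 read in each WT library and 2 and 0 reads in ADPKD. Slc25a41, an ATP-Mg/phosphate carrier without the calcium-binding domain, had 3 reads in WT replicate 2 and none in the other libraries, and a count of 0 allows up to 3 reads, at most 0.125 FPKM for this gene. The ornithine carrier Slc25a2 had between 2 and 8 reads and the glutamate carrier Slc25a18 between 8 and 10. These 4 genes fell under the expression filter, a mean of 0.5 FPKM over the 4 libraries, and 42 members were tested.

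Summed over the family, the carriers were lower in both ADPKD libraries. The sums were 1953.5 and 1947.1 FPKM in WT and 1282 and 1377 FPKM in ADPKD. The sum over all genes tested was also lower in both ADPKD libraries, so part of this drop is not particular to the carriers. That sum was 511870 and 478430 FPKM in WT and 410640 and 424230 FPKM in ADPKD. The log2 difference of the family's sums was -0.55, with an exact two-sided permutation p of 0.333, the smallest that 2 against 2 libraries can give. The 4 highest members held 65.9% and 61.7% of the family's sum in WT and 57.8% and 57.5% in ADPKD. Slc25a5 alone held 33.3% and 27.2% in WT and 24.4% and 23.6% in ADPKD. In bulk tissue, fewer cells of a type and less RNA per cell cannot be told apart, and this holds for every difference given here.

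Of the 42 tested members, 2 rose and 5 fell in ADPKD at an adjusted p below 0.05 (limma on log2(FPKM + 1), adjusted by the Benjamini-Hochberg method over all 17001 genes tested). Slc25a24 and Slc25a30 rose, and Slc25a5, Slc25a10, Slc25a11, Slc25a13 and Slc25a23 fell. Among all genes tested, 9.43% were called higher and 4.78% lower, beside 4.76% and 11.9% of the members. The median log2 fold change of the members was -0.23, and that of all genes tested was 0.18. Fold changes in the text are as fitted and are not shifted by that median. The members' values lay below the median of all genes for 32 of 42 genes and below 0 for 27. Without overlap between the groups' libraries, 23 members were lower in ADPKD and 10 higher, beside 21.0% and 43.6% of all genes tested.

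**Figure D2:**
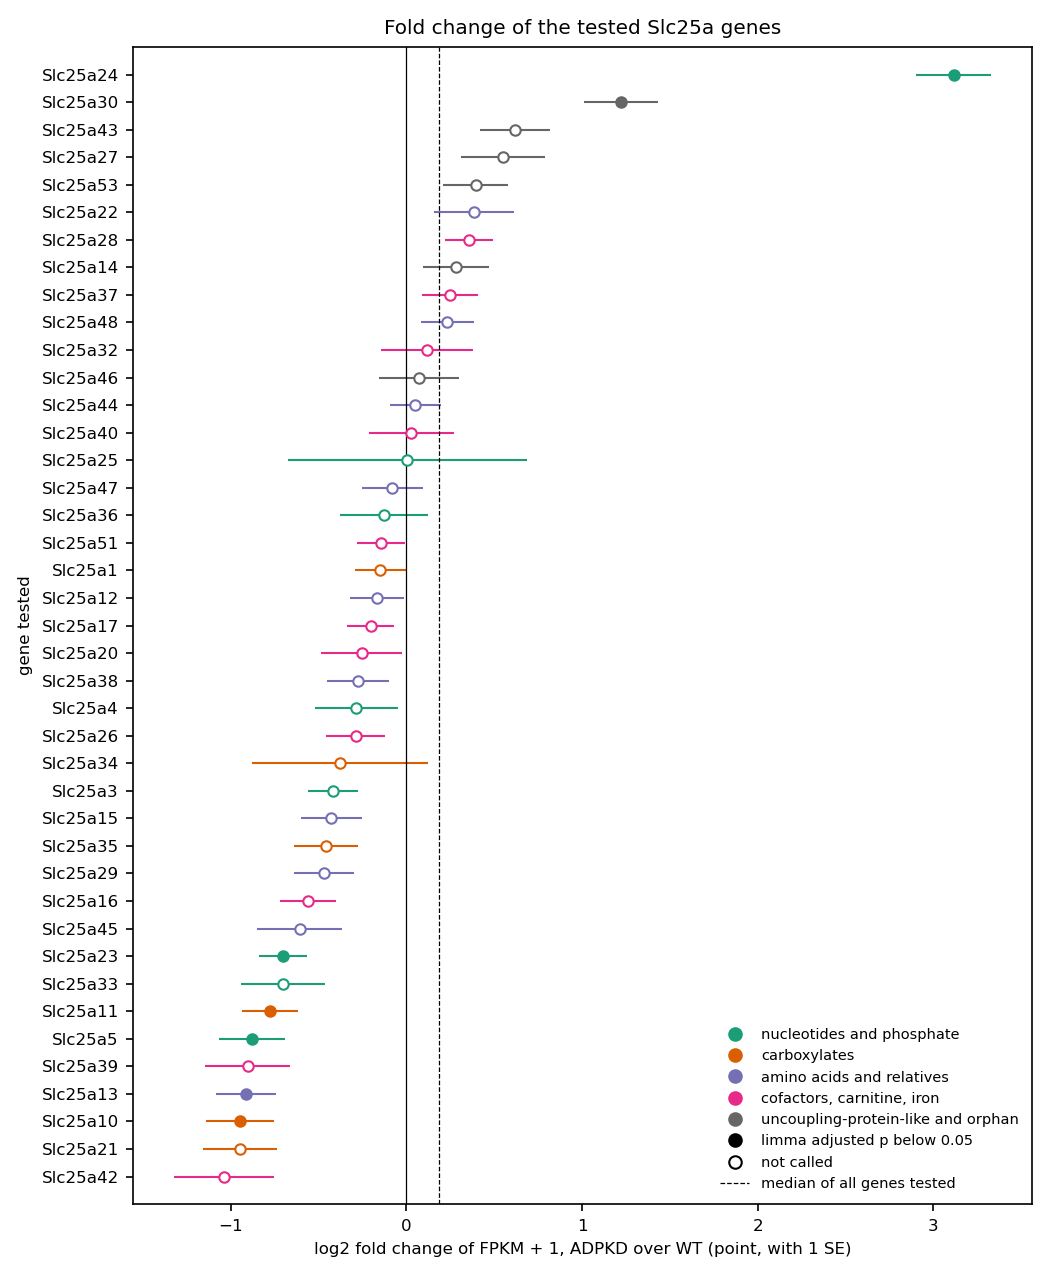
Log2 fold change of the tested Slc25a genes, ADPKD over WT, on the log2(FPKM + 1) scale, with bars of 1 SE. Colours give the kind of solute, filled points the 7 genes with an adjusted p below 0.05, and the dashed line the median of all genes tested at 0.18; Slc25a24 at 3.12 and Slc25a30 at 1.22 stand to the right of all others.

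These calls rest on few libraries. With a library left out, the lone sample of its group is assumed to vary like the samples of the other group, and fewer samples enter the test. Leaving out WT replicate 1, WT replicate 2 or ADPKD replicate 1 left Slc25a24 as the single call among the members, while 3.37%, 1.55% and 3.30% of all genes tested were called, beside the 9.43% higher and 4.78% lower with all 4 libraries. Leaving out ADPKD replicate 2 gave a log2 fold change of 3.28 for Slc25a24, and the lack of calls in that fit was not particular to the members. Over these 4 fits the log2 fold change ran from 2.95 to 3.29 for Slc25a24, from 0.99 to 1.45 for Slc25a30 and from -1.07 to -0.76 for Slc25a13. The sign of each of the 7 genes was the same under all 13 alternatives tried.

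Carriers of nucleotides and phosphate numbered 10, of which 8 were tested. Slc25a24 rose, Slc25a5 and Slc25a23 fell, and the other 5 did not pass the test. From so few genes, that is 12.5% higher and 25% lower, beside 9.43% and 4.78% of all genes tested. The largest change in the family was in Slc25a24 (chr3:109123149-109168457, plus strand, GRCm38), a carrier that moves ATP-Mg against phosphate across the inner membrane and is switched by calcium, so that it sets the adenine nucleotide pool of the matrix. It stood at 1.70 and 1.13 FPKM in WT, from 107 and 70 reads, and at 22.3 and 17.6 FPKM in ADPKD, from 1420 and 1204 reads. Both ADPKD libraries were far above both WT libraries, and the mean was 14.1-fold higher. The log2 fold change was 3.12 (SE 0.21, adjusted p = 0.0164 by limma), and on this scale it understates the change of a gene that is low in WT. Its rank among the members went from 37 in WT to 11 in ADPKD.

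Slc25a23 (chr17:57043711-57059863, minus strand, GRCm38), a carrier of the same ATP-Mg/phosphate type, went the other way. Its libraries were at 30.8 and 31.4 FPKM in WT, with ADPKD at 19.3 and 18.1 FPKM, with replicates close together and groups apart. The log2 fold change was -0.70 (SE 0.14, adjusted p = 0.0419 by limma). An overlapping gene, Gm17168, covers 3.17% of the exon length of Slc25a23. The third gene of this type, Slc25a25, differed more between replicates than between groups, at 8.29 and 16.3 FPKM in WT and 5.82 and 22.8 FPKM in ADPKD (log2 fold change 0.01, SE 0.68).

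Within the library, the ratio of Slc25a24 to Slc25a23 was 0.0551 and 0.0361 in WT and 1.16 and 0.970 in ADPKD. Slc25a24 held 4.16% and 2.31% of the summed FPKM of the ATP-Mg/phosphate carriers in WT, and 47.0% and 30.1% in ADPKD. Their sum overlapped between groups, at 40.8 and 49.0 FPKM in WT and 47.4 and 58.5 FPKM in ADPKD. The groups overlapped in this sum but not in the share that Slc25a24 held. Because Slc25a24 and Slc25a23 were both called, the ratio adds no separate test.

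Slc25a5 (chrX:36795651-36798807, plus strand, GRCm38) is the ADP/ATP exchanger of dividing and many other cells. It had 651 and 530 FPKM in WT and 313 and 325 FPKM in ADPKD, with no overlap. The log2 fold change was -0.88 (SE 0.19, adjusted p = 0.0499 by limma, just inside the threshold), and the mean was 1.85-fold higher in WT. Slc25a5 has processed copies: 33.8% of the 50-base words of its annotated transcripts also occur in transcripts of 9 other genes, all 9 of them pseudogenes. Reads with several alignments were counted, per the file headers, so its level is uncertain. The row named Slc25a5-ps was at 9.13 and 7.71 FPKM in WT and 5.17 and 4.24 FPKM in ADPKD.

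Slc25a4, which makes the ADP/ATP exchanger of heart and muscle, overlapped between groups, at 252 and 193 FPKM in WT and 158 and 208 FPKM in ADPKD (log2 fold change -0.28, adjusted p = 0.443 by limma). The ratio of Slc25a4 to Slc25a5 was 0.388 and 0.364 in WT and 0.503 and 0.638 in ADPKD. Its log2 difference was 0.59 (exact permutation p = 0.333, the smallest possible). Slc25a3 was lower in both ADPKD libraries, at 178 and 172 FPKM in WT and 132 and 129 FPKM in ADPKD, but was not called (log2 fold change -0.42, adjusted p = 0.122 by limma). Together, the ADP/ATP carriers and Slc25a3 held 55.4% and 45.9% of the family's sum in WT and 47.0% and 48.1% in ADPKD, with overlapping groups (exact permutation p = 1).

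The pyrimidine nucleotide carriers Slc25a33 and Slc25a36 did not pass the test. Slc25a33 was at 8.42 and 12.9 FPKM in WT and 5.60 and 6.45 FPKM in ADPKD (log2 fold change -0.70, adjusted p = 0.120 by limma), and 14.9% of its exon length lies under Gm13068. Slc25a36 overlapped between groups, at 7.53 to 11.9 FPKM.

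All 6 carboxylate carriers were tested and all 6 had a log2 fold change below 0, beside 35.9% of all genes tested. Their median was -0.62, beside 0.18 for all genes tested. In 5 of 6 the ADPKD libraries were lower without overlap, beside 21.0% of all genes. Slc25a10 and Slc25a11 fell, and the other 4 did not pass the test. The share called lower was 33.3%, beside 4.78% of all genes tested. Slc25a10 (chr11:120491840-120499187, plus strand, GRCm38) is the dicarboxylate carrier, which exchanges malate or succinate for phosphate. It read 114 and 147 FPKM in WT and 61.8 and 71.5 FPKM in ADPKD. The log2 fold change was -0.95 (SE 0.19, adjusted p = 0.0456 by limma), with both ADPKD libraries below both WT libraries.

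Slc25a11 (chr11:70644196-70647479, minus strand, GRCm38) exchanges oxoglutarate for malate and is a limb of the malate-aspartate shuttle, which brings the reducing power of cytosolic NADH into mitochondria. Levels were 90.5 and 102 FPKM in WT and 52.1 and 59.4 FPKM in ADPKD. The groups did not overlap, and the log2 fold change was -0.78 (SE 0.16, adjusted p = 0.0457 by limma). Exons of Rnf167 cover 8.92% of the exon length of Slc25a11, and those of Gm11788 cover 6.60% of that of Slc25a10, and without strand the reads of overlapping genes cannot be told apart.

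Slc25a21, the oxodicarboxylate carrier of lysine and tryptophan breakdown, was at 4.29 and 3.79 FPKM in WT and 1.27 and 1.99 FPKM in ADPKD. Its log2 fold change of -0.95 was as large as that of Slc25a10, and its adjusted p of 0.0531 by limma lay just outside the threshold. Slc25a1, which exports citrate for fatty acid synthesis, differed little, at 54.7 and 52.7 FPKM in WT and 51.1 and 45.6 FPKM in ADPKD (log2 fold change -0.15). Slc25a34 and Slc25a35, named for their likeness to oxaloacetate carriers of yeast, had log2 fold changes of -0.38 and -0.46. The WT replicates of Slc25a34 alone differed from 9.84 to 20.4 FPKM.

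**Figure D3:**
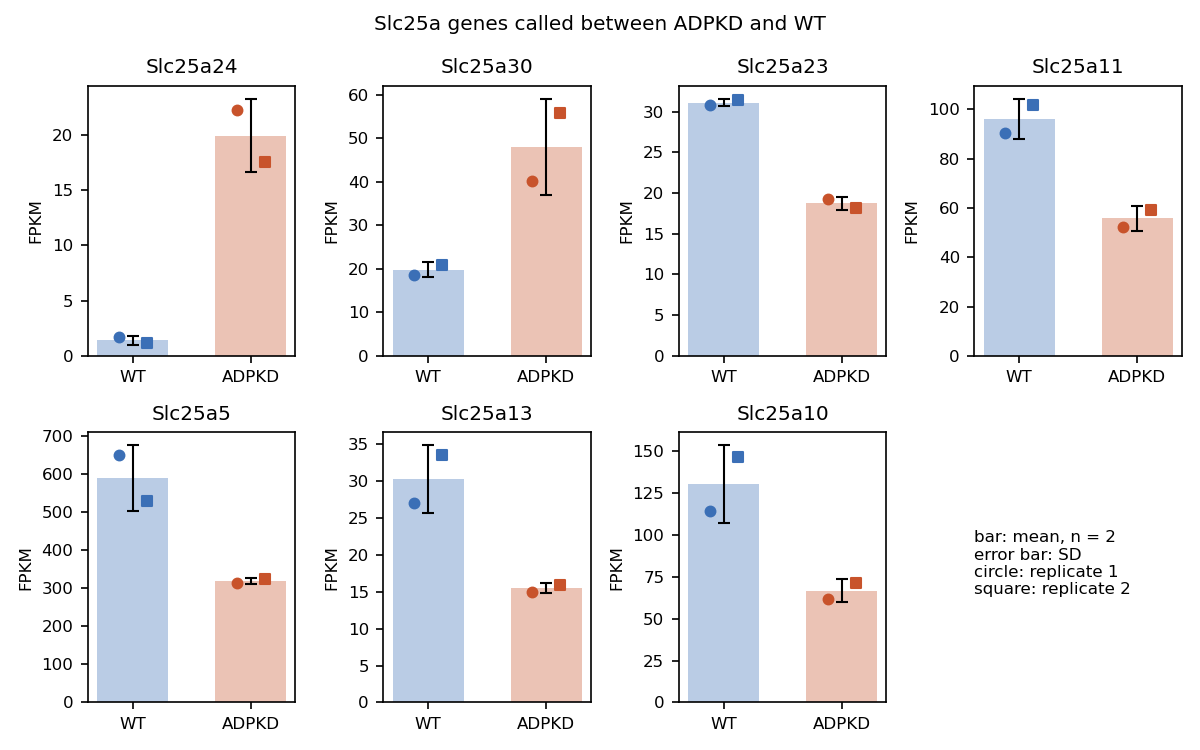
FPKM of the 7 Slc25a genes with an adjusted p below 0.05, with bars for the group mean, error bars for the SD of 2 libraries and a mark for each library. In each panel the 2 ADPKD libraries lie on the same side of both WT libraries; Slc25a24 and Slc25a30 are higher in ADPKD and the other 5 lower.

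Carriers of amino acids and related solutes numbered 12, with 10 tested, and Slc25a13 alone fell (median log2 fold change -0.22). This call is 10% of those tested, beside 4.78% of all genes tested called lower. Slc25a13 (chr6:6041218-6217173, minus strand, GRCm38), known as citrin, exports aspartate for glutamate and serves the malate-aspartate shuttle and the urea cycle. It was at 27.0 and 33.5 FPKM in WT, with ADPKD at 15.0 and 16.0 FPKM. The groups did not overlap, and the log2 fold change was -0.92 (SE 0.17, adjusted p = 0.0383 by limma). The other aspartate/glutamate carrier, Slc25a12 or aralar, had 10.0 and 11.1 FPKM in WT and 8.75 and 9.85 FPKM in ADPKD (log2 fold change -0.17, adjusted p = 0.491 by limma). The log2 ratio of Slc25a12 to Slc25a13 was -1.43 and -1.59 in WT and -0.78 and -0.70 in ADPKD, a difference of 0.77 (exact permutation p = 0.333, the smallest possible).

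The remaining amino acid carriers were not called. The ornithine carrier Slc25a15, part of the urea cycle, was at 24.4 and 19.2 FPKM in WT and 16.2 and 15.4 FPKM in ADPKD (log2 fold change -0.43, adjusted p = 0.168 by limma). Slc25a22, a glutamate importer, was at 3.22 and 4.16 FPKM in WT and 4.26 and 6.05 FPKM in ADPKD. Slc25a44, a carrier of branched-chain amino acids, lay between 11.3 and 12.5 FPKM in all 4 libraries, with overlapping groups. The glycine carrier Slc25a38, needed for heme synthesis, was at 10.9 and 13.8 FPKM in WT and 10.4 and 9.56 FPKM in ADPKD, without overlap. Slc25a47, known from liver, stayed near 1 FPKM, at 0.902 to 1.08.

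None of the 12 carriers of cofactors, carnitine and iron passed the test in either direction, and their median log2 fold change was -0.23. At an unadjusted p below 0.05 by limma there were 4 lower and 0 higher, beside 5878 of all 17001 genes in either direction. Voom on recovered reads called 1 of the 12 lower and 0 higher. Without overlap between groups, 7 of the 12 were lower in ADPKD and 2 higher, beside 21.0% and 43.6% of all genes tested. Slc25a39, the glutathione carrier, was at 205 and 307 FPKM in WT and 138 and 129 FPKM in ADPKD (log2 fold change -0.90, SE 0.24, adjusted p = 0.0780 by limma), with WT replicates that differed by more than 1.5 times. Slc25a42, which imports coenzyme A, was at 15.9 and 26.2 FPKM in WT and 8.35 and 10.6 FPKM in ADPKD (log2 fold change -1.04, SE 0.29, adjusted p = 0.0805 by limma).

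Slc25a16, linked to coenzyme A, was at 19.5 and 22.5 FPKM in WT, with 13.1 and 14.7 FPKM in ADPKD (log2 fold change -0.56, adjusted p = 0.0852 by limma). Slc25a17, in peroxisomes, and Slc25a51, the NAD carrier, differed less, with log2 fold changes of -0.20 and -0.15. Slc25a26, which imports S-adenosylmethionine, and Slc25a32, which imports folate, were low, at 2.27 to 3.36 FPKM and 2.68 to 4.44 FPKM.

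Slc25a20, which brings acylcarnitines into mitochondria for fatty acid oxidation, overlapped between groups at 16.5 and 21.1 FPKM in WT and 13.1 and 18.3 FPKM in ADPKD. Both mitoferrins, the iron importers, stood slightly higher in ADPKD without passing the test. Slc25a28 was at 13.7 and 14.3 FPKM in WT and 18.3 and 18.1 FPKM in ADPKD (log2 fold change 0.36, adjusted p = 0.148 by limma), and Slc25a37 at 5.86 and 5.0 against 6.65 and 6.59 FPKM. For Slc25a37 the sign changed to -0.0066 under quantile normalization. The log2 ratio of Slc25a28 to Slc25a37 differed by 0.09 between groups (exact permutation p = 1).

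Among the 6 carriers related to uncoupling proteins or without an assigned solute, Slc25a30 rose and the other 5 did not pass the test. That is 16.7% called higher, beside 9.43% of all genes tested. The median log2 fold change of the 6 was 0.47, beside 0.18 for all genes tested. None of the 6 was below 0, beside 35.9% of all genes, and 5 of 6 were higher without overlap between groups, beside 43.6% of all genes. Slc25a30 (chr14:75760117-75787037, minus strand, GRCm38), kidney mitochondrial carrier protein 1, is related to the uncoupling proteins. It read 18.6 and 21.0 FPKM in WT and 40.3 and 55.8 FPKM in ADPKD. With both ADPKD libraries above both WT libraries, the log2 fold change was 1.22 (SE 0.21, adjusted p = 0.0344 by limma) and the mean was 2.43-fold higher. Its rank among the members went from 15 to 8. Under median-of-ratios scaling the adjusted p was 0.108, with a log2 fold change of 1.0.

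The related genes Slc25a14 and Slc25a27, also called uncoupling proteins 5 and 4, were low, at 1.5 to 2.48 FPKM and 1.02 to 2.82 FPKM, and were not called. Slc25a43 was at 0.275 and 0.281 FPKM in WT and 0.787 and 1.15 FPKM in ADPKD, from 9, 9, 26 and 41 reads (log2 fold change 0.62, adjusted p = 0.106 by limma). Slc25a43 lies next to Slc25a5 on the X chromosome, and the pair had log2 fold changes of opposite sign. Slc25a53 was at 0.225 and 0.377 FPKM in WT and 0.677 and 0.736 FPKM in ADPKD. Slc25a46, an outer membrane protein of mitochondrial fission rather than an inner membrane exchanger, overlapped between groups at 8.43 to 11.9 FPKM.

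**Figure D4:**
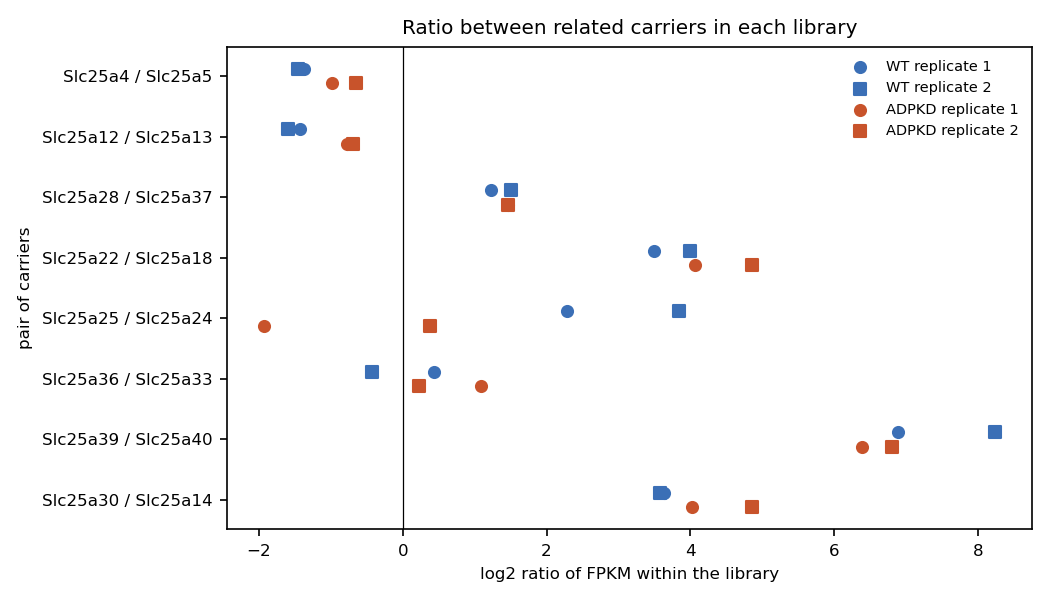
Log2 ratio of FPKM within each library for 8 pairs of related carriers, blue for WT and orange for ADPKD. The ratio of Slc25a25 to Slc25a24 differs by -3.85 between groups and that of Slc25a28 to Slc25a37 by 0.09; with 2 libraries per group no exact permutation p can fall below 0.333.

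Over the 8 pairs, the remaining log2 ratios differed between ADPKD and WT by 0.71 for Slc25a22 to Slc25a18, 0.65 for Slc25a36 to Slc25a33, -0.97 for Slc25a39 to Slc25a40 and 0.83 for Slc25a30 to Slc25a14. Exact permutation p-values were 0.667 for Slc25a36 to Slc25a33, whose groups overlap, and 0.333 for the other three. Leaving out 1 library at a time moved these differences to between 0.32 and 1.10 (without ADPKD replicate 2 and without ADPKD replicate 1) for Slc25a22 to Slc25a18, and to between 0.41 and 1.25 (without the same libraries) for Slc25a30 to Slc25a14. For Slc25a36 to Slc25a33 the range was 0.22, without WT replicate 2 or ADPKD replicate 1, to 1.08, without either of the others. For Slc25a39 to Slc25a40 it was -1.64, without WT replicate 1, to -0.29, without WT replicate 2. The difference for Slc25a28 to Slc25a37 ran from -0.053, without WT replicate 1, to 0.23, without WT replicate 2. That for Slc25a25 to Slc25a24 ran from -5.0, without ADPKD replicate 2, to -2.70, without ADPKD replicate 1. Slc25a18 rests on 8 to 10 reads per library, which limits its ratio. Slc25a40, a relative of the glutathione carrier, was low and overlapped between groups at 1.01 to 1.73 FPKM.

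Promoter windows, 250 bases before to 50 after the gene start as annotated by RefSeq on GRCm38.p6, were found for 35 of the 46 members. They are shown for the called members that rose, Slc25a24 and Slc25a30, and for the ATP-Mg/phosphate carrier and the aspartate/glutamate carrier that fell, Slc25a23 and Slc25a13, written 5′ to 3′ on the gene's strand. Capitals mark matches to 7 motifs searched on both strands: NRF1 (GCATGCGC), ETS (CCGGAAGT), ERR (TCAAGGTCA), AP-1 (TGANTCA), Sp1 (GGGCGGGG), CCAAT and the E-box (CACGTG).
Slc25a24 (chr3:109122899-109123198, plus strand): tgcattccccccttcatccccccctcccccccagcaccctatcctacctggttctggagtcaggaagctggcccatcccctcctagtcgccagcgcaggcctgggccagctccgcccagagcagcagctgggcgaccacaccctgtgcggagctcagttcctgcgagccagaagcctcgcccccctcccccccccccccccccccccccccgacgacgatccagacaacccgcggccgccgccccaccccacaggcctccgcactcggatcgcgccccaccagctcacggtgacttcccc
Slc25a30 (chr14:75786988-75787287, minus strand): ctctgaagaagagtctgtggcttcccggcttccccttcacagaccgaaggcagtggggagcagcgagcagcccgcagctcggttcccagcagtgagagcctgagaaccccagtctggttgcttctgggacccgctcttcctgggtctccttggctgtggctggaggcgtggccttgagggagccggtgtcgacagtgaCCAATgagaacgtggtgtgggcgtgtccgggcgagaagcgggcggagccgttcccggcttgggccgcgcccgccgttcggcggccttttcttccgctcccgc
Slc25a23 (chr17:57059814-57060113, minus strand): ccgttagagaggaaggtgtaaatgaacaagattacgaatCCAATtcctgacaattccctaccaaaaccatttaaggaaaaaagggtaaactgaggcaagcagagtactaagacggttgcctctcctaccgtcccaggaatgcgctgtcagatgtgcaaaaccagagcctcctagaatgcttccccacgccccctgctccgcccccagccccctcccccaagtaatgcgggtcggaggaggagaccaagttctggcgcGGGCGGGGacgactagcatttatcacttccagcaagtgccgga
Slc25a13 (chr6:6217124-6217423, minus strand): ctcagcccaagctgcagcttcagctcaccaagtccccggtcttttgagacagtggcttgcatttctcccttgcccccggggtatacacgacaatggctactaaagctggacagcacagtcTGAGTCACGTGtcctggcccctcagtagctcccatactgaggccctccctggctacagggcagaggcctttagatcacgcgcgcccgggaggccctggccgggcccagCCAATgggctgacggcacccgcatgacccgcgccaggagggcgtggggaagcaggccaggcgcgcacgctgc
The GC content ran from 72.3% in Slc25a24 through 66.7% in Slc25a30 and 65% in Slc25a13 to 54% in Slc25a23. None of the 7 motifs matched in Slc25a24, which says only that these letters are not in this window. Slc25a30 held CCAAT, Slc25a23 held CCAAT and Sp1, and Slc25a13 held CCAAT and an AP-1 match whose last bases overlap an E-box.

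Over the 35 members with a window, CCAAT matched in 17, or 48.6%, beside 37.9% of all 27018 windows. Sp1 matched in 12, or 34.3%, beside 17.8%, and the E-box in 6, or 17.1%, beside 7.24%. AP-1 matched in 2, Slc25a11 and Slc25a13, or 5.71% beside 7.94%. NRF1 and ETS matched in 1 each, 2.86% beside 2.81% and 4.0%, and ERR in none beside 0.407%. The median GC content was 60% in the members and 52.7% in all windows, and its part in the shares was not tested. A match is a run of letters and not a site of binding.

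Other mitochondrial genes were read from the same fit, in which 9.43% of all genes tested were called higher and 4.78% lower. Of 23 nuclear genes of the respiratory chain and ATP synthase, 16 fell and none rose, with a median log2 fold change of -0.92 beside -0.23 for the carriers. The difference between these medians was not tested. Of 21 tested transporters outside the family, Mpc1, Mpc2, Letm1 and Abcb8 fell and Mcub and Sfxn3 rose (median -0.24). That is 19.0% called lower and 9.52% higher, and the share called higher was near that of all genes tested. Mpc1 and Mpc2, the subunits of the mitochondrial pyruvate carrier, had log2 fold changes of -0.94 and -1.04, beside -0.95 for Slc25a10 and -0.92 for Slc25a13. Mcub, an inhibitory relative of the calcium uniporter, went from 0.124 and 0.548 FPKM to 3.64 and 4.94 FPKM.

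Enzymes that work on the carried solutes numbered 28 tested, of which 6 fell and 3 rose, Arg2 and Mthfd2 among them (median log2 fold change -0.36). That is 21.4% called lower and 10.7% higher, beside 4.78% and 9.43% of all genes tested. The share called higher was thus near that of all genes. Mdh1 and Mdh2, the malate dehydrogenases on either side of the shuttle that Slc25a11 and Slc25a13 serve, were among those that fell, at -1.45 and -0.91 on the log2 scale, and were chosen after their values were seen. Got1 and Got2, the aspartate aminotransferases of that shuttle, were not called, with log2 fold changes of 0.09 and -0.52. Of 11 regulators of mitochondrial genes, Esrra fell, which is 9.09% of them, and none rose (median -0.22). Of 3 tested family members under other symbols, none was called by limma, and voom called Ucp2. At an unadjusted p below 0.05 by limma 2 were higher and 0 lower, beside 5878 of all 17001 genes in either direction. Ucp2, an uncoupling protein, was at 28.7 and 33.5 FPKM in WT and 55.1 and 103 FPKM in ADPKD (log2 fold change 1.25, adjusted p = 0.0745 by limma), and Mtch1 and Mtch2 had log2 fold changes of 0.42 and -0.30.

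**Figure D5:**
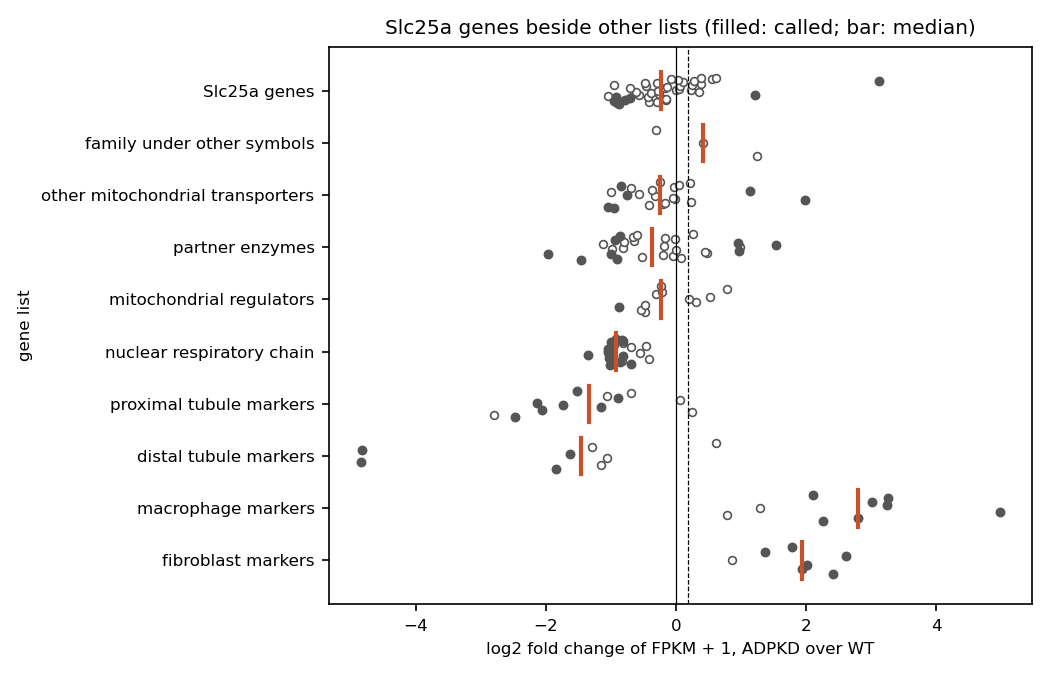
Log2 fold change, ADPKD over WT, of each tested gene in the Slc25a family and in 9 other lists, with filled points for an adjusted p below 0.05, a bar at each median and the dashed line at the median of all genes tested. The Slc25a median of -0.23 lies between those of the respiratory chain at -0.92 and of macrophage markers at 2.80.

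The kidney label of the samples had its markers in all 4 libraries, with Umod of the thick ascending limb at 269 to 906 FPKM and Aqp2 of the collecting duct at 309 to 475 FPKM. Markers of kidney cell types differed between the same libraries as the carriers. Their counts stand beside 9.43% of all genes tested called higher and 4.78% called lower. Of 12 proximal tubule markers, 7 fell and none rose (median log2 fold change -1.34), with summed levels of 3080 and 3241 FPKM in WT and 1384 and 1200 FPKM in ADPKD. Of 8 markers of the thick ascending limb and distal tubule, Slc12a1, Egf, Slc12a3 and Pvalb fell (median -1.45), with sums of 1275 and 1515 against 625 and 418 FPKM and Pvalb at 0 in ADPKD replicate 1. Of 7 collecting duct markers, Slc4a1 fell (median -0.61, sums of 487 to 688 FPKM with overlapping groups).

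Of 9 macrophage markers 7 rose (median log2 fold change 2.80), with sums of 124 and 196 FPKM in WT and 697 and 1427 FPKM in ADPKD, and of 7 fibroblast markers 6 rose (median 1.93), with sums of 82.8 and 78.3 against 421 and 325 FPKM. Erythroid genes summed to 2316 FPKM in WT replicate 1 and 109 to 506 FPKM in the other libraries. Of 8 proliferation genes limma and voom called 0, with 0 at an unadjusted p below 0.05 (median 0.24). Slc25a24 and Slc25a30 were higher in the libraries where macrophage and fibroblast markers were higher, and the 5 called carriers that were lower were so in the libraries where tubule markers were lower. Within ADPKD, the macrophage sum and Slc25a30 were higher in replicate 2, and the fibroblast sum and Slc25a24 in replicate 1. With 2 libraries and sums in opposite order, any gene must go with 1 of these sums, so this says nothing about cell types. The part of cell makeup in these differences was not tested.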

How the data were processed

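RNA-seq was analysed from 4 whole-kidney samples, grouped by their titles into 2 ADPKD and 2 WT. The values were FPKM per gene as deposited by the authors. Bowtie2, DESeq2 and the mm10 build are named, without versions or roles, per the submitters' processing notes. A deposited table of gene positions and exon lengths, in a unit of bases, came from featureCounts 1.6.0 with Ensembl GRCm38 release 98. Per the file headers, it summed exonic reads by gene name, multi-mapping reads included, with neither strand nor pairing set, so genes with copies or overlaps can share reads. Its 16 further columns of per-sample values match no sample by name and were not used here. Times exon length, 100% of the FPKM values gave whole reads within 0.01 reads, which gave the depths of 18385710 and 18001308 assigned reads in WT and 18562606 and 19955120 in ADPKD. A count of 0 allows up to 3 reads, which covers counting error only.

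The 25 rows whose names had become dates were left out, and 17001 genes with a mean of at least 0.5 FPKM were tested in limma 3.58.1 (R 4.3.3) on log2(FPKM + 1), with an intensity trend and Benjamini-Hochberg adjustment over all of them. The prior had 2.55 degrees of freedom beside 2 residual. Calls were made at an adjusted p below 0.05, two-sided. Fold changes on this scale understate those of low genes. The script was tested on simulated data. Sums and ratios were compared by exact two-sided permutation. Members, lists, motifs and the rule for named genes (members, and genes of other lists in counts of 5 or fewer or beside a cell type list) were chosen with earlier results of these data known, and no list was given a test. Alternatives were another pseudocount, 2 other filters, quantile and median-of-ratios scaling, a robust prior, no trend, the replicate number as a block, voom on recovered reads (which called 3037 of 17001 genes), leaving out each library, and leaving out members with over 10% of exon length under other genes. Shared words of 50 bases were counted in GENCODE M21 transcripts. Some genes counted in the totals are not reported here by name or drawn as single genes.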

Additional observations from a re-analysis of the deposited data

How the results depend on the processing

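Each of the 7 called members had the same sign under all 13 alternatives of scale, filter, model and library. Slc25a24 was called in 11 of 13, Slc25a13 and Slc25a30 in 7, Slc25a10 and Slc25a23 in 6, and Slc25a5 and Slc25a11 in 5. The adjusted p of Slc25a24 ran from 0.0102 by voom to 0.0667 by limma without a filter, where it was not called. Without a filter, members called numbered 0 higher and 0 lower, and 1 gene was called of 32151. At an unadjusted p below 0.05 by limma there were 17 of 46 members, beside 7251 of the 32151 genes. Under median-of-ratios scaling 1 member was higher and 2 lower, and without the trend 2 were lower. Leaving out a library kept at most the call of Slc25a24, in fits with fewer samples, while the log2 fold change of Slc25a13 ran from -1.07 to -0.76. With the replicate block 2 were higher and 2 lower (Slc25a10 and Slc25a13). As far as the labels go, same-numbered libraries share only a number, so this does not show a weaker effect. Their deviations from the group means correlated at 0.188, which is a single value, because with 2 libraries per group the deviations mirror each other. The cause of these differences was not tested.

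The members' median log2 fold change was -0.17 without a filter, -0.28 at a mean of 5 FPKM, -0.34 by quantiles, -0.46 by median of ratios, -0.19 without members over 10% overlap, and -0.32 to -0.18 leaving out a library. Those scalings moved the median of all genes from 0.18 to -0.012 and 0.0060. The summed FPKM differed by -0.79 (log2) under median of ratios. Among uncalled members the sign turned for Slc25a25 at a pseudocount of 0.1 (-0.012), by quantiles (-0.21), by median of ratios (-0.20) and in voom (-0.0090), and by quantiles and median of ratios for Slc25a44 (-0.15, -0.16), Slc25a46 (-0.16, -0.14), Slc25a32 (-0.15, -0.065) and Slc25a40 (-0.17, -0.11); Slc25a37 was at -0.0066 by quantiles. Leaving out a library gave -0.89 to 0.91 for Slc25a25, -0.92 to 0.16 for Slc25a34, -0.013 to 0.11 for Slc25a44, -0.42 to 0.17 for Slc25a36, -0.14 to 0.29 for Slc25a46, -0.14 to 0.37 for Slc25a32 and -0.19 to 0.25 for Slc25a40. Depth limits the 4 untested members and Slc25a43, which had 9 reads in each WT library.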

Other observations

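Replicates of the same group differed by more than 1.5 times in FPKM for 8 of the 42 tested members in WT (Slc25a39, Slc25a42, Slc25a34, Slc25a45, Slc25a25, Slc25a33, Slc25a40 and Slc25a53) and for 6 in ADPKD (Slc25a34, Slc25a25, Slc25a36, Slc25a21, Slc25a32 and Slc25a27). Slc25a34 and Slc25a25 were in both sets. The median ratio between replicates was 1.21 in WT and 1.15 in ADPKD. Members related to carnitine and ornithine carriers did not pass the test, with Slc25a45 at 18.1 and 11.7 FPKM in WT and 9.23 and 9.18 FPKM in ADPKD, and Slc25a29, a carrier of basic amino acids, at 3.61 and 3.56 against 2.09 and 2.56 FPKM. Slc25a48 was at 11.8 and 11.9 FPKM in WT and 15.2 and 13.1 FPKM in ADPKD. Slc25a35 shares 31.3% of its exon length with Rangrf, which without strand leaves its level uncertain. Adipose markers, of which limma and voom called 0 of 4 tested with 1 at an unadjusted p below 0.05, summed to 15.7 and 12.5 FPKM in WT and 25.4 and 15.3 FPKM in ADPKD.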
